A study of Mus musculus with 12 samples.

Results

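Transcripts of 10 enzymes that build, elongate and desaturate fatty acids were followed across 4 lines of mouse embryonic fibroblasts (MEFs). The enzymes were listed by name: *Acly* and *Acss2*, which make cytosolic acetyl-CoA, *Acaca* and *Fasn*, which turn it into palmitate, *Elovl6*, *Scd1* and *Scd2*, which elongate and desaturate the products, and *Fads1*, *Fads2* and *Elovl5*, which act on polyunsaturated fatty acids. All 10 have a row among the 24453 genes of the count table, and all 10 were among the 14026 genes left by a filter on low counts. RNA-seq was done on 3 biological replicates of each line, 12 libraries in all. TM6 is the parental line, made from C57BL6/J mice and immortalized with a viral large T antigen, and it received no treatment. The rho0 line was derived from TM6 by culture with ditercalinium dichloride dihydrochloride, a DNA-binding drug that depletes mitochondrial DNA (mtDNA), at 750 ng/mL for 3 weeks, and was then grown from a single cell. Both knockout clones, PKO-1 and PKO-6, likewise grew from single TM6 cells after transduction with an adenovirus that carries Cre recombinase, which removes an exon of *Pnpt1*, the gene of the mitochondrial exoribonuclease PNPase. The genotype of all 4 lines is given as *Pnpt1* neo-flox/neo-flox, and all were kept with uridine at 50 µg/mL. Each derived line is therefore 1 clone, its replicates are cultures of that clone, and p-values measure the spread between cultures and not between clones.

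Fatty acid synthesis starts with citrate that leaves the mitochondria. ATP citrate lyase (*Acly*) splits it into acetyl-CoA and oxaloacetate, acetyl-CoA synthetase 2 (*Acss2*) makes acetyl-CoA from acetate, acetyl-CoA carboxylase (*Acaca*) makes malonyl-CoA, and fatty acid synthase (*Fasn*) assembles palmitate at the cost of NADPH. Elongases of the ELOVL family lengthen fatty acids in the endoplasmic reticulum, stearoyl-CoA desaturases (SCD) place the first double bond, and the FADS desaturases place further ones in fatty acids from the diet or serum. Many of these genes are known targets of the sterol regulatory element binding proteins (SREBPs), transcription factors that are held in the endoplasmic reticulum with SCAP and INSIG when sterols are plentiful. The comparisons ask how cells without mtDNA, made by a drug or by loss of PNPase, differ from the parental line.

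The promoters of *Fasn* and *Acss2*, which fell in every derived line, and that of *Acaca*, which did not pass the test in rho0, are shown with the matches of 4 short motifs in capitals. The sequences are RefSeq promoters of GRCm38.p6, from 250 bases before the start of the transcript to 50 after it, written 5′ to 3′ on the strand of the gene. *Fasn* is at chr11:120824498-120824797 on the minus strand, *Acss2* at chr2:155517793-155518092 on the plus strand and *Acaca* at chr11:84195188-84195487 on the plus strand.
Fasn: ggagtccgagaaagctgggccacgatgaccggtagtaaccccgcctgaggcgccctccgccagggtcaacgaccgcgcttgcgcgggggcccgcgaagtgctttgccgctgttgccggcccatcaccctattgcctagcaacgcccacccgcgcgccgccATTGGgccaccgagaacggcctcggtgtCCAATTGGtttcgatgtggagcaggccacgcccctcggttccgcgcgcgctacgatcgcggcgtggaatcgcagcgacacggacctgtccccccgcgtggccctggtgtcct
Acss2: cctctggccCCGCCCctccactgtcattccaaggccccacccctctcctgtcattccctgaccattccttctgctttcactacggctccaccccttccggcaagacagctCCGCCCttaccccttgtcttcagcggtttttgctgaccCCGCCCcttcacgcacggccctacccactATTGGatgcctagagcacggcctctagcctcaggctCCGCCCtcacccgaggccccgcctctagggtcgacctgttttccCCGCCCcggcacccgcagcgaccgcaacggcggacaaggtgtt
Acaca: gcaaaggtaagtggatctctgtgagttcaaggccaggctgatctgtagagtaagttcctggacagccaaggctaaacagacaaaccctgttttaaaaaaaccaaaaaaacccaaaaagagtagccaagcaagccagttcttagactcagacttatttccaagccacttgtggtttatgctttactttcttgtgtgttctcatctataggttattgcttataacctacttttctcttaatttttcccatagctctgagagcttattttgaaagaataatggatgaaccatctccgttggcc
The motifs searched on both strands were CCAAT, which NF-Y binds, GGGCGG, a GC box that Sp1 binds, CACGTG, an E-box, and TCACNCCAC, a core of sterol regulatory elements. The RefSeq table held a promoter for 7 of the 10 genes, and none was looked up elsewhere for *Fads1*, *Scd1* and *Scd2*. CCAAT was in 4 of the 7 promoters (*Acly*, *Acss2*, *Elovl5* and *Fasn*), against 37.4% of all 32817 promoters of the same length. In *Fasn* it occurred 3 times, at positions -90, -62 and -59 from the start, and the last 2 matches overlap on opposite strands. GGGCGG was in 3 of the 7 (*Acly*, *Acss2* and *Fads2*), against 35.6% of all promoters, with 5 matches in *Acss2* alone. CACGTG was in the promoter of *Elovl5* alone, against 7.15% of all promoters, and TCACNCCAC was in 0 of the 7, against 1.24%. The *Acaca* and *Elovl6* windows held none of the 4 motifs. The *Acaca* window had 39.7% G and C, against 55.7% to 69.3% in the others. It rests on the 1 annotated transcript of the gene. Whether transcription starts there in these cells was not tested, so the lack of motifs is not read as a trait of *Acaca*. These are matches of letters in a short window, and binding was not measured.

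Of the 10 enzymes, 9 were lower in rho0 than in TM6, 9 in PKO-1 and 10 in PKO-6, and none was higher in any of the 3 lines. A gene is called lower or higher here at an edgeR adjusted p below 0.01 with an absolute log2 fold change above 0.5, and 21.4%, 17.9% and 19.4% of all tested genes were called lower in rho0, PKO-1 and PKO-6. The median log2 fold change of the 10 enzymes was -1.11 in rho0, -1.52 in PKO-1 and -1.28 in PKO-6, while the medians over all tested genes were 0.02, 0.00 and 0.01. With both clones pooled as the study did, 10 of 10 were called lower in PKO, against 12.2% of all genes, with a median of -1.42. That fit takes the cultures of both clones as replicates of each other. The libraries of a derived line and of TM6 did not overlap for 9 enzymes in rho0, 10 in PKO-1 and 10 in PKO-6. Groups of most genes did not overlap either, with 72.8%, 71.8% and 71.9% of those tested. The 3 comparisons share the TM6 libraries and are not independent of each other. In bulk RNA, fewer cells that express a gene and less RNA per cell cannot be told apart.

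**Figure D1:**
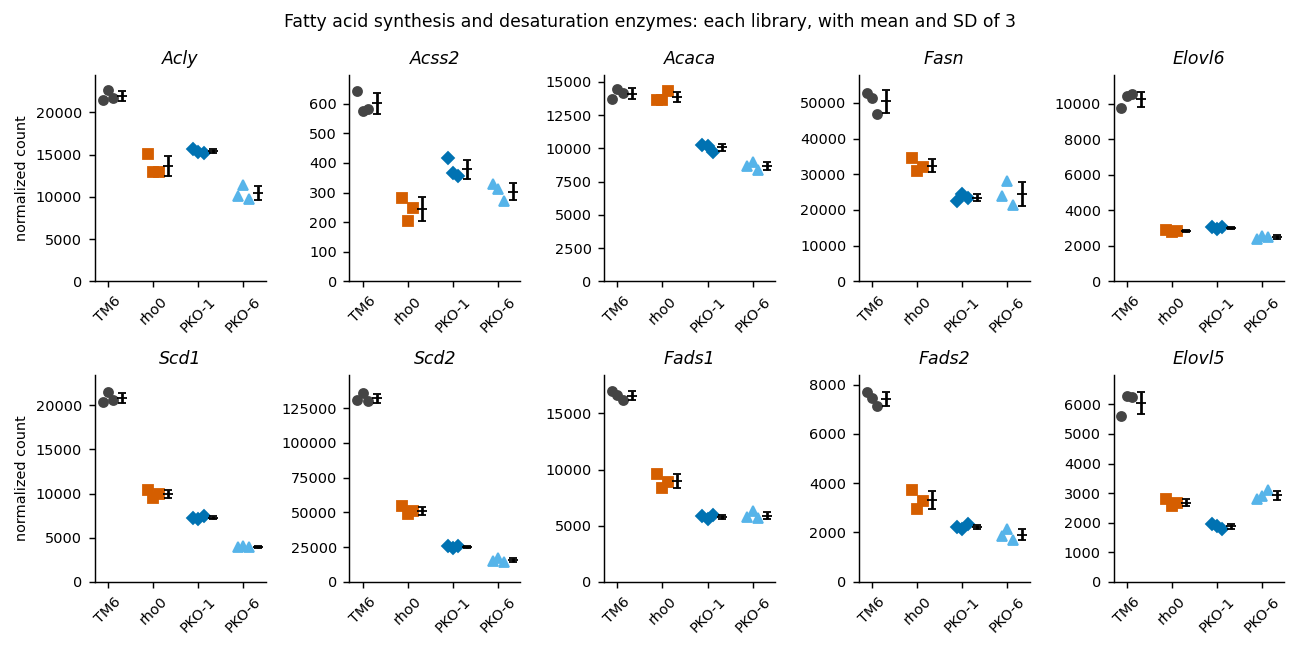
Normalized counts (linear axis from 0) of the 10 enzymes in each of the 12 libraries, with 1 panel per gene; symbols are libraries and the bar beside them is the mean and SD of 3. In 9 panels all TM6 libraries lie above all others, and in the panel of Acaca the rho0 libraries overlap those of TM6.

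The libraries held 47164860 to 67991378 estimated counts, of which 12.2% to 19.6% fell on the ribosomal RNA precursor *Rn45s*. The 10 enzymes took 0.561% to 0.587% of the remaining counts in TM6, 0.290% to 0.304% in rho0, 0.192% to 0.200% in PKO-1 and 0.156% to 0.177% in PKO-6. *Pnpt1* averaged 3131 normalized counts in TM6, 5271 in rho0, 1240 in PKO-1 and 1944 in PKO-6, counted over the whole gene of which Cre removes an exon only. Fibroblast markers had a summed level of 4419 to 4696 TPM, a transcript level scaled for length and depth, in TM6, 3238 to 3309 in rho0, 4260 to 4461 in PKO-1 and 2418 to 2633 in PKO-6 over 9 genes, among which *Thy1* was at 0 in PKO-6 and below 1 TPM elsewhere, and *Pdgfra* was at 0.33 to 0.46 TPM in rho0. Of the 8 tested, 6 were called lower and 1 higher in rho0 and likewise in PKO-6, with medians of -1.51 and -1.46 on the log2 scale, and 2 were lower and 3 higher in PKO-1, with a median of -0.07. Among all genes, 21.4%, 17.9% and 19.4% were lower and 20.7%, 16.4% and 21.9% higher in rho0, PKO-1 and PKO-6. Adipocytes, in which these enzymes are abundant, have 7 markers here, with a summed level of 10.4 to 11.8 TPM in TM6, 9.45 to 10.5 in rho0, 5.35 to 6.64 in PKO-1 and 5.14 to 6.44 in PKO-6, of which *Plin1* was at 0 in all 12 libraries. Only 2 of the 7 were tested, and they moved in opposite directions in rho0. *Fabp4* was called lower in all 3 lines, with means of 4.49 TPM in TM6, 0.08 in rho0, 0.76 in PKO-1 and 1.25 in PKO-6. *Pparg* was called higher in rho0 and lower in PKO-6, with means of 6.53, 9.89, 5.02 and 4.34 TPM in the same order. Markers of epithelial cells summed to at most 1.61 TPM, of endothelial cells to at most 0.89 and of immune cells to at most 0.02. The part of these shifts in the results below was not tested.

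Among the enzymes that supply acetyl-CoA, *Acly* (chr11:100476352-100528000, minus strand) had 21483, 22644 and 21668 normalized counts in the TM6 libraries, 15022, 12904 and 12972 in rho0, 15705, 15355 and 15178 in PKO-1 and 10156, 11409 and 9802 in PKO-6. Its order by means was TM6, PKO-1, rho0 and PKO-6, with no overlap between neighbours. PKO-1 exceeded rho0 by a log2 fold change of 0.18 (edgeR adjusted p = 0.0392), and rho0 exceeded PKO-6 by 0.38 (edgeR adjusted p = 0.000448). Neither of these differences was called. The log2 fold change from TM6 was -0.69 in rho0 (SE 0.0703, edgeR adjusted p = 1.01e-06), -0.51 in PKO-1 (SE 0.0701, edgeR adjusted p = 2.25e-05) and -1.07 in PKO-6 (SE 0.0708, edgeR adjusted p = 9.98e-09). The difference in PKO-1 lies at the fold threshold and was not called without TM6 replicate 2, at -0.48, or without PKO-1 replicate 3, at -0.50. *Acss2* (chr2:155518043-155562743, plus strand), the least abundant of the 10, had 643, 577 and 582 normalized counts in the TM6 libraries, 283, 203 and 247 in rho0, 415, 367 and 355 in PKO-1 and 328, 311 and 272 in PKO-6. Its lowest line was rho0, where the PKO-6 and rho0 libraries overlap. Its log2 fold change was -1.30 in rho0 (SE 0.120, edgeR adjusted p = 3.7e-07), -0.67 in PKO-1 (SE 0.117, edgeR adjusted p = 2.0e-04) and -0.98 in PKO-6 (SE 0.118, edgeR adjusted p = 4.49e-06).

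*Acaca*, which commits acetyl-CoA to fatty acids, had the smallest difference from TM6 in each line. The gene (chr11:84195438-84401651, plus strand, 54 exons) had 13728, 14498 and 14139 normalized counts in the TM6 libraries, 13621, 13617 and 14282 in rho0, 10258, 10217 and 9755 in PKO-1 and 8687, 9000 and 8379 in PKO-6. Of the rho0 libraries, 2 lay just below the lowest of TM6 and 1 among them, so that the groups overlapped through a single library, whereas both PKO clones lay below TM6. The log2 fold change was -0.03 in rho0 (SE 0.0489, edgeR adjusted p = 0.607), -0.49 in PKO-1 (SE 0.0491, edgeR adjusted p = 1.12e-06) and -0.70 in PKO-6 (SE 0.0492, edgeR adjusted p = 1.82e-08). In PKO-1 it missed the fold threshold of 0.5 by little: it was called under 5 alternatives, at -0.51 to -0.52, with the median of its chromosome subtracted, at -0.53, with no fold threshold and, at -0.52 to -0.54, without TM6 replicate 1, any of the rho0 replicates, PKO-6 replicate 1 or PKO-6 replicate 2. The direct difference from rho0 was -0.46 in PKO-1 (SE 0.0491, edgeR adjusted p = 2.42e-06), below the fold threshold, and -0.67 in PKO-6 (SE 0.0492, edgeR adjusted p = 9.44e-08), which was called.

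*Fasn* (chr11:120805958-120824547, minus strand, 43 exons) had 52862, 51435 and 46875 normalized counts in the TM6 libraries, 34448, 30924 and 31910 in rho0, 22551, 24403 and 23356 in PKO-1 and 23923, 28189 and 21376 in PKO-6. Each derived line lay below TM6, rho0 lay above both clones, and PKO-1 and PKO-6 overlapped. Its log2 fold change was -0.64 in rho0 (SE 0.0894, edgeR adjusted p = 2.21e-05), -1.10 in PKO-1 (SE 0.0901, edgeR adjusted p = 1.35e-07) and -1.04 in PKO-6 (SE 0.09, edgeR adjusted p = 1.64e-07). The clones differed by -0.06 (PKO-1 against PKO-6, SE 0.0892, edgeR adjusted p = 0.558), with a sign that turned to 0.05 without PKO-6 replicate 2.

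*Elovl6*, the elongase that turns palmitate into stearate, fell in all 3 derived lines. The gene (chr3:129532386-129638493, plus strand) had 9788, 10445 and 10568 normalized counts in the TM6 libraries, 2912, 2807 and 2856 in rho0, 3069, 2967 and 3049 in PKO-1 and 2375, 2576 and 2530 in PKO-6. The lowest TM6 library held over 3 times the counts of the highest library of any derived line. The log2 fold change was -1.84 in rho0 (SE 0.0497, edgeR adjusted p = 1.86e-12), -1.76 in PKO-1 (SE 0.0495, edgeR adjusted p = 3.3e-12) and -2.04 in PKO-6 (SE 0.05, edgeR adjusted p = 5.41e-13). Among the derived lines, PKO-1 against rho0 differed by 0.08 (SE 0.049, edgeR adjusted p = 0.149), and no pair passed the fold threshold.

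The stearoyl-CoA desaturases *Scd1* and *Scd2*, which make oleate and palmitoleate, both lie on chromosome 19 and fell in a graded order. *Scd2* (chr19:44293676-44306862, plus strand) had 130878, 135695 and 129695 normalized counts in the TM6 libraries, 54273, 48517 and 50695 in rho0, 25619, 24406 and 25391 in PKO-1 and 15092, 16949 and 14252 in PKO-6. All 4 lines were apart from each other. The log2 fold change from TM6 was -1.37 in rho0 (SE 0.071, edgeR adjusted p = 9.95e-10), -2.39 in PKO-1 (SE 0.0734, edgeR adjusted p = 7.59e-12) and -3.10 in PKO-6 (SE 0.0756, edgeR adjusted p = 5.4e-13), the last of which left 11.7% of the TM6 level. *Scd1* (chr19:44394450-44407709, minus strand) had 20366, 21465 and 20606 normalized counts in the TM6 libraries, 10431, 9444 and 9938 in rho0, 7277, 7087 and 7422 in PKO-1 and 3930, 4107 and 3899 in PKO-6. It followed the same order with no overlap, and its log2 fold changes were -1.07 (SE 0.0511, edgeR adjusted p = 4.52e-10), -1.52 (SE 0.0517, edgeR adjusted p = 2.01e-11) and -2.39 (SE 0.0534, edgeR adjusted p = 2.7e-13) in rho0, PKO-1 and PKO-6. *Scd1* and *Scd2* are paralogs, so their split of shared reads rests on the authors' probabilistic assignment. Their paralogs *Scd3* and *Scd4*, named after their values were seen, had means of at most 18.8 and 58.5 normalized counts in any line.

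The enzymes of polyunsaturated fatty acids fell as well. *Fads1*, the delta-5 desaturase (chr19:10182888-10196872, plus strand), had 16961, 16654 and 16181 normalized counts in the TM6 libraries, 9621, 8382 and 8892 in rho0, 5860, 5577 and 5930 in PKO-1 and 5784, 6270 and 5644 in PKO-6. The clones overlapped below rho0, which lay below TM6. Its log2 fold change was -0.89 in rho0 (SE 0.06, edgeR adjusted p = 1.43e-08), -1.52 in PKO-1 (SE 0.061, edgeR adjusted p = 1.0e-10) and -1.49 in PKO-6 (SE 0.0609, edgeR adjusted p = 6.89e-11). *Fads2*, the delta-6 desaturase (chr19:10064164-10101503, minus strand), had 7681, 7453 and 7140 normalized counts in the TM6 libraries, 3711, 2964 and 3265 in rho0, 2228, 2159 and 2328 in PKO-1 and 1865, 2153 and 1704 in PKO-6. The order of the line means was that of the desaturases *Scd1* and *Scd2*, and no neighbours overlapped, although the highest PKO-6 library nearly reached the lowest of PKO-1. Its log2 fold changes were -1.16 (SE 0.087, edgeR adjusted p = 4.05e-08), -1.73 (SE 0.0888, edgeR adjusted p = 1.21e-09) and -1.96 (SE 0.0894, edgeR adjusted p = 2.16e-10) in rho0, PKO-1 and PKO-6.

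*Elovl5*, which elongates polyunsaturated fatty acids (chr9:77917365-77984519, plus strand), had 5601, 6284 and 6257 normalized counts in the TM6 libraries, 2801, 2554 and 2675 in rho0, 1948, 1886 and 1796 in PKO-1 and 2791, 2915 and 3090 in PKO-6. It was the only enzyme whose lowest line was PKO-1 without overlap with PKO-6, and rho0 and PKO-6 overlapped. The log2 fold change was -1.18 in rho0 (SE 0.0611, edgeR adjusted p = 1.01e-09), -1.69 in PKO-1 (SE 0.0623, edgeR adjusted p = 4.49e-11) and -1.04 in PKO-6 (SE 0.0607, edgeR adjusted p = 2.59e-09). The 776 tested genes of chromosome 9 had a median log2 fold change of -0.39 in PKO-1, against 0.04 in rho0 and 0.01 in PKO-6, and 37.4% of them were called lower in PKO-1. The medians of chromosomes 2, 3, 11 and 19, which hold the other enzymes, were between -0.17 and 0.06 in the 3 lines. With the chromosome median subtracted, the log2 fold change of *Elovl5* in PKO-1 was -1.30, which was still called. Here and below, the subtraction shifts the log2 fold change alone and keeps the adjusted p of the unshifted test.

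**Figure D2:**
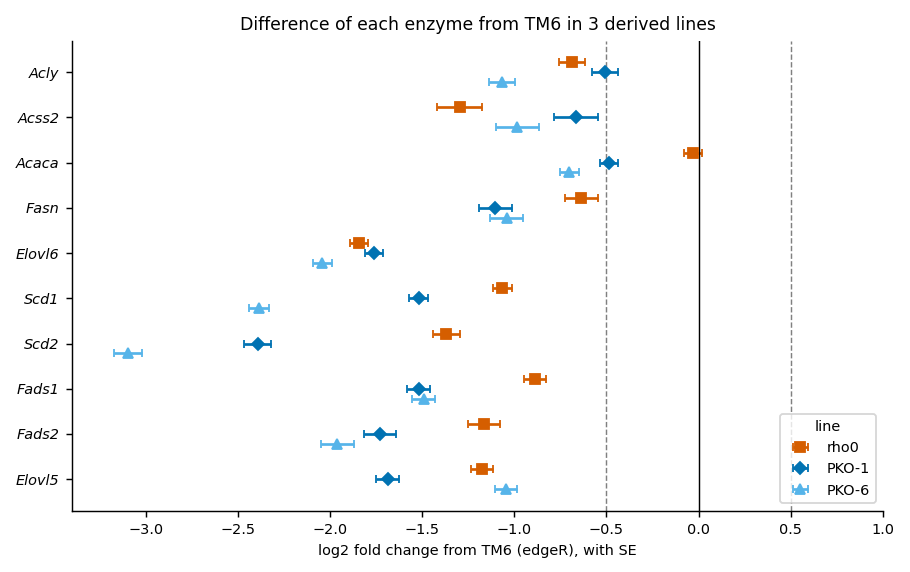
Log2 fold change from TM6 (horizontal axis) of each enzyme in rho0, PKO-1 and PKO-6, with its standard error from the edgeR fit of 12 libraries; the solid line marks 0 and the dashed lines the threshold of 0.5. The points run from -0.03 for Acaca in rho0 to -3.10 for Scd2 in PKO-6, and all lie left of 0.

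The derived lines also differed among themselves. Between the clones, 4 enzymes were called, against 29.1% of all genes in either direction: *Acly*, *Scd1* and *Scd2* were higher in PKO-1 than in PKO-6, by 0.56 (SE 0.0703, edgeR adjusted p = 1.11e-05), 0.87 (SE 0.0515, edgeR adjusted p = 6.3e-09) and 0.70 (SE 0.0703, edgeR adjusted p = 1.19e-06) on the log2 scale, and *Elovl5* was lower, by -0.64 (SE 0.0617, edgeR adjusted p = 8.06e-07). With the median of each chromosome subtracted, 2 of the 4 were called, *Scd1* and *Scd2*. PKO-1 and rho0 differed in 5 enzymes, against 32.7% of all genes: *Acss2* was higher in PKO-1, by 0.63, and *Scd2*, *Fads1*, *Fads2* and *Elovl5* were lower, by -1.03, -0.63, -0.57 and -0.51 (edgeR adjusted p between 3.14e-08 and 0.000476). With chromosome medians subtracted, *Elovl5* was no longer called, at -0.07, while *Fasn* and *Acaca* were, at -0.51 and -0.50. Without rho0 replicate 1 that count was 3, since *Elovl5* and *Fads2* moved to -0.49. PKO-6 was lower than rho0 in 5 enzymes, *Acaca*, *Scd1*, *Scd2*, *Fads1* and *Fads2*, and higher in none, against 21.5% of all genes in either direction. The largest of these differences was -1.73 for *Scd2* (SE 0.0718, edgeR adjusted p = 3.47e-10). The median difference over the 10 enzymes was 0.26 for PKO-1 against PKO-6, -0.46 for PKO-1 against rho0 and -0.50 for PKO-6 against rho0. The clones did not show a difference in *Fads1*, at -0.03 (SE 0.0601, edgeR adjusted p = 0.719), and its sign was not stable.

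Levels can be compared between genes only per length, as TPM. Summed over the 10 enzymes, TPM was 1711 ± 25.1 in TM6, 799 ± 15.7 in rho0, 531 ± 24.0 in PKO-1 and 427 ± 16.98 in PKO-6 (mean ± SD, n = 3 libraries), and the lines did not overlap. *Scd2* was the most abundant of the 10 in every line and *Acss2* the least. The TPM of *Scd2* was 757, 772 and 748 in TM6, 283, 289 and 296 in rho0, 139, 129 and 145 in PKO-1 and 81.7, 89.3 and 84.7 in PKO-6. Its share of the summed TPM was 44.4% ± 0.235 in TM6, 36.2% ± 0.151 in rho0, 26.0% ± 0.386 in PKO-1 and 20.0% ± 0.270 in PKO-6 (mean ± SD, n = 3 libraries). *Acly* took 9.18% in TM6 and 12.0%, 19.8% and 16.9% in rho0, PKO-1 and PKO-6, and *Acaca* took 2.82% of the sum in TM6 and 5.85%, 6.20% and 6.71% in the same order. An exact two-sided permutation test of 3 against 3 libraries cannot go below p = 0.1, which the summed TPM and the share of *Scd2* reached in each line. With the 6 PKO libraries pooled against TM6, both had an exact permutation p of 0.0238, the smallest that 6 against 3 libraries can give. Those 6 are cultures of both clones, which did not overlap on either measure. The pooled p counts cultures and not clones, so it adds nothing on how clones vary.

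The ratios between related enzymes differed between the lines. *Scd2* exceeded *Scd1* by a TPM ratio of 5.61 ± 0.0625 in TM6, 4.55 ± 0.0465 in rho0, 3.06 ± 0.0455 in PKO-1 and 3.42 ± 0.210 in PKO-6 (mean ± SD, n = 3 libraries), without overlap between any lines. The ratio of *Fasn* to *Acaca*, successive steps of palmitate synthesis, was 3.24 ± 0.244 in TM6, 2.13 ± 0.146 in rho0, 2.11 ± 0.101 in PKO-1 and 2.55 ± 0.268 in PKO-6 (mean ± SD, n = 3 libraries), with each derived line below TM6. *Fads1* to *Fads2* lay the other way, at 0.904 ± 0.00938 in TM6, 1.10 ± 0.0440 in rho0, 1.04 ± 0.0136 in PKO-1 and 1.26 ± 0.0751 in PKO-6 (mean ± SD, n = 3 libraries). *Elovl5* to *Elovl6* was 1.31 ± 0.0346 in TM6 and 2.08 ± 0.0542 in rho0, 1.38 ± 0.0595 in PKO-1 and 2.61 ± 0.105 in PKO-6 (mean ± SD, n = 3 libraries), where PKO-1 and TM6 overlapped. The ratio of *Acly* to *Acss2* was 22.9 ± 1.85 in TM6, 35.3 ± 3.86 in rho0, 25.5 ± 1.70 in PKO-1 and 21.7 ± 1.93 in PKO-6 (mean ± SD, n = 3 libraries), so that rho0 stood apart and both clones overlapped with TM6.

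**Figure D3:**
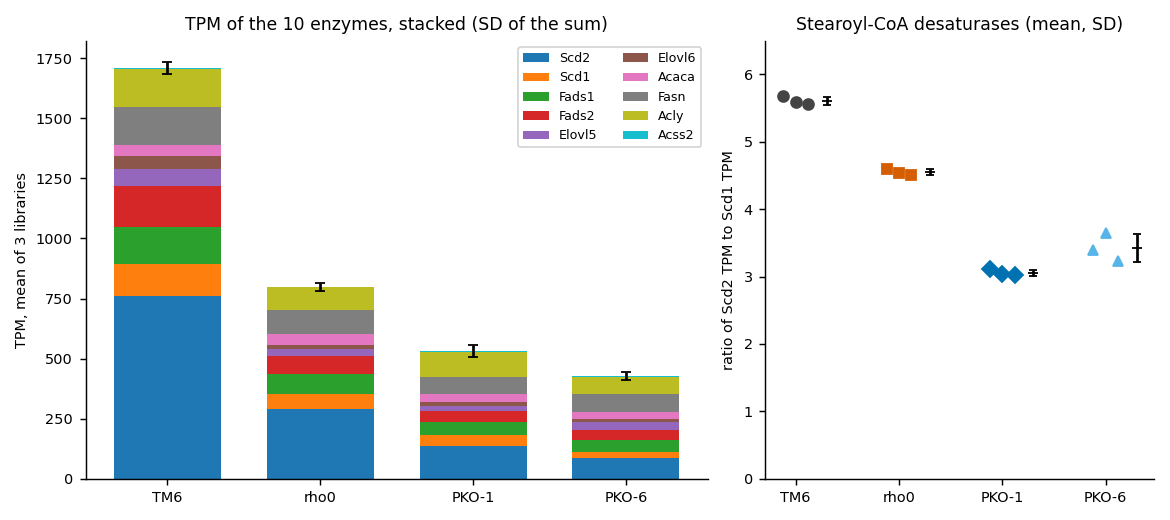
Left, TPM of the 10 enzymes (means of 3 libraries, stacked from 0, with the SD of the sum) in the 4 lines, falling from 1711 in TM6 to 427 in PKO-6; right, the ratio of Scd2 to Scd1 TPM in each library with the mean and SD of 3, from 5.61 in TM6 to 3.06 in PKO-1.

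*Acly* is the only one of the 10 with more than 1 transcript in the annotation used, and the mix of its transcripts differed between the lines. The 29-exon and 28-exon transcripts differ by exon 14, which is 30 bases long, inside the coding region, and keeps the reading frame. The exon lies at chr11:100503160-100503189 of GRCm38 on the minus strand, and its sequence, read from the GENCODE M21 transcripts, is shown because the difference between the transcripts consists of it.
Acly exon 14: attcagtcccaagtccaagatccctgcaag
The 29-exon transcript made up 41.9%, 39.7% and 43.0% of the gene's TPM in TM6, 59.2%, 59.2% and 63.4% in rho0, 54.3%, 55.4% and 57.6% in PKO-1 and 48.2%, 51.1% and 51.7% in PKO-6. Every library of the derived lines lay above every TM6 library, and the means were 41.5% ± 1.66, 60.6% ± 2.42, 55.8% ± 1.67 and 50.3% ± 1.89 (mean ± SD, n = 3 libraries). The exact two-sided permutation p was 0.1 for each line against TM6, the smallest 3 against 3 libraries allow, and 0.0238 for the 6 PKO libraries. The pooled p again counts cultures of both clones, which did not overlap, as replicates of each other. These shares are RSEM's estimates from 2 transcripts that share all but 30 bases, and reads across the exon were not counted here.

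**Figure D4:**
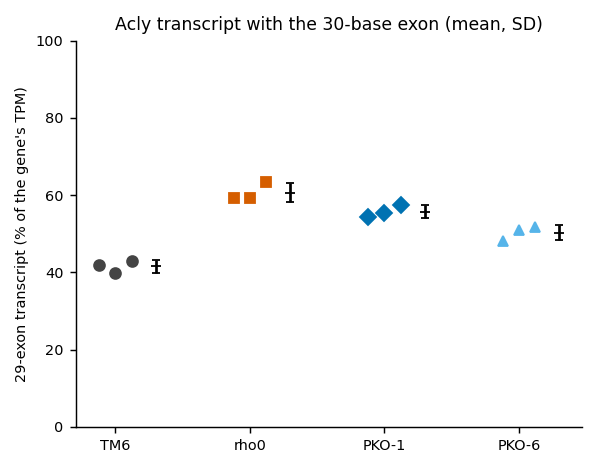
Share of the 29-exon transcript in the TPM of Acly (percent, axis from 0 to 100) in each of the 12 libraries, with the mean and SD of 3 beside them. TM6 lies at 39.7% to 43.0% and all other libraries lie at 48.2% or above.

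Genes that surround the 10 enzymes in the pathway were read from lists compiled by hand. Among the regulators, *Srebf2*, *Srebf1*, *Insig1* and *Mid1ip1* were called lower in all 3 lines. *Srebf2*, which encodes SREBP2, had a log2 fold change of -1.18 in rho0 (SE 0.105), -1.81 in PKO-1 (SE 0.107) and -1.67 in PKO-6 (SE 0.106), with edgeR adjusted p of 2.36e-07, 5.02e-09 and 6.48e-09. *Srebf1*, which encodes SREBP1 and is known for its control of fatty acid genes, fell less, with log2 fold changes of -0.59 (SE 0.0941), -0.92 (SE 0.0949) and -1.14 (SE 0.0952) in rho0, PKO-1 and PKO-6, with edgeR adjusted p of 7.25e-05, 1.38e-06 and 1.12e-07. *Insig1*, an SREBP target that retains SCAP, went from 13547 to 13619 normalized counts in TM6 to 3397 to 3890 in rho0, 2607 to 3285 in PKO-1 and 2113 to 2309 in PKO-6. Its log2 fold changes were -1.91, -2.21 and -2.64, with edgeR adjusted p between 3.55e-12 and 8.78e-11. *Mid1ip1*, a binding partner of acetyl-CoA carboxylase, fell too, at -0.75, -1.27 and -0.86. Of the 13 tested regulators, 5 were lower in rho0, 5 in PKO-1 and 6 in PKO-6, and 1, 0 and 1 were higher, against 20.7%, 16.4% and 21.9% of all genes called higher. The shares called lower among all genes were 21.4%, 17.9% and 19.4%. *Scap*, the SREBP escort named after its values were seen, was lower in PKO-1, at -0.77, and not called in rho0, at -0.11, or PKO-6, at -0.23. The higher one was *Prkaa2*, a catalytic subunit of AMP-activated kinase named after its values were seen, at 0.94 in rho0 and 1.25 in PKO-6.

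Of 7 genes of precursor and NADPH supply, 4 were lower in rho0, 4 in PKO-1 and 5 in PKO-6, and 1 was higher in PKO-1. The shares of all genes were 21.4%, 17.9% and 19.4% lower and 20.7%, 16.4% and 21.9% higher in the same order. *G6pdx*, which opens the pentose phosphate pathway and makes NADPH, had log2 fold changes of -2.02, -1.56 and -1.82 in rho0, PKO-1 and PKO-6 (edgeR adjusted p between 2.06e-11 and 2.79e-10). *Pgd*, the next NADPH-producing enzyme of that pathway, fell as well, at -0.97, -0.55 and -1.62, as did malic enzyme *Me1*, at -0.66, -1.38 and -1.23. The citrate carrier *Slc25a1*, which feeds *Acly*, had log2 fold changes of -0.30, -0.50 and -0.71 and was called in PKO-6 alone.

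Other elongation and desaturation genes did not move as one. Of 14 tested, 6 were lower in rho0, 7 in PKO-1 and 6 in PKO-6, and 2, 0 and 2 were higher. Among all genes, 21.4%, 17.9% and 19.4% were lower and 20.7%, 16.4% and 21.9% higher. The dehydratases of elongation *Hacd4* and *Hacd3* fell in all 3 lines, *Hacd4* at -3.04, -3.75 and -2.68 and *Hacd3* at -0.83, -1.17 and -1.03, and *Elovl7* fell at -1.50, -1.05 and -0.60. The higher genes were *Elovl3* and *Fads6*, named after their values were seen. *Elovl3*, an elongase of saturated and monounsaturated fatty acids, had 0 to 2.59 normalized counts in TM6, 58.7 to 75.6 in rho0, 1.19 to 3.20 in PKO-1 and 192 to 221 in PKO-6. *Fads6* had 3.99 to 13.8 normalized counts in TM6, 52.5 to 64.9 in rho0, 13.8 to 26.2 in PKO-1 and 201 to 298 in PKO-6. *Fads3*, the relative of *Fads1* and *Fads2* and likewise named afterwards, had log2 fold changes of 0.47 in rho0 and 0.11 in PKO-6, neither called, and -1.18 in PKO-1, which was.

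Genes downstream of synthesis were called in both directions. Among 11 genes of fatty acid activation and uptake, 4 were lower and 1 higher in rho0, 5 and 3 in PKO-1 and 5 and 5 in PKO-6, with medians of -0.15, -0.35 and -0.22. Of all genes, 21.4%, 17.9% and 19.4% were called lower and 20.7%, 16.4% and 21.9% higher. The fatty acid binding protein *Fabp5* (-1.51, -0.79 and -1.25 in rho0, PKO-1 and PKO-6), the transporter *Slc27a4* (-1.13, -1.06 and -1.28) and the acyl-CoA synthetase *Acsl3* (-0.62, -1.08 and -1.59) fell, and the synthetase *Acsl6* rose by 2.63, 2.01 and 4.37 from a mean of 13.8 normalized counts in TM6. Among 12 genes of esterification and storage, 2 were lower and 2 higher in rho0, 3 and 2 in PKO-1 and 1 and 4 in PKO-6, which is near the same shares of all genes and is read as no result about the list. *Lpin1*, a phosphatidate phosphatase, fell, at -1.56, -1.43 and -1.15, and *Dgat2*, which completes triglycerides, rose by 2.20, 0.57 and 1.52. Mitochondria have their own fatty acid synthesis, and its genes were listed together with those of lipoylation, the attachment of lipoate to proteins. Of the 9 tested genes of this joint list 1 was lower in each line, *Oxsm*, at -0.63, -0.88 and -1.90, and 1 was higher in rho0. The list had a median log2 fold change of 0.01 in rho0, 0.02 in PKO-1 and 0.03 in PKO-6. As this median fell on a lipoylation gene in rho0 and PKO-1, it is not read as a result about synthesis alone. Sterol synthesis, the other SREBP branch, had 19 of 20 genes lower in each line with medians of -2.18, -2.16 and -2.16, and *Cyp51*, *Nsdhl* and *Fdps* led it, at -2.36 to -3.39. These lists were chosen with results of these libraries known, and the difference between lists was not tested.

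**Figure D5:**
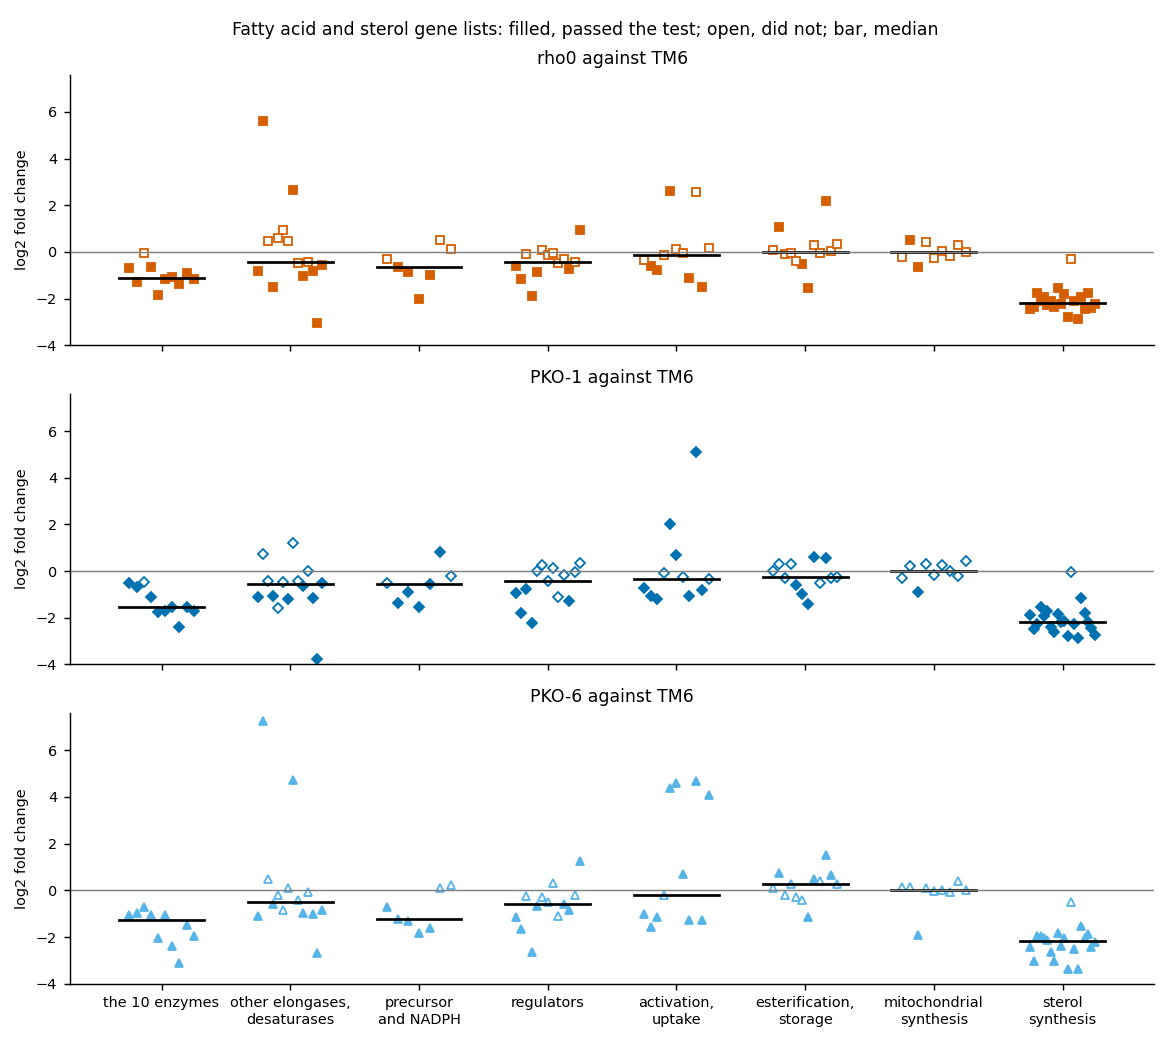
Log2 fold change from TM6 (vertical axis) of each tested gene of 8 lists in rho0, PKO-1 and PKO-6; filled symbols passed the test, open symbols did not, and bars are list medians. The sterol genes center near -2.2 and the 10 enzymes between -1.11 and -1.52, while the mitochondrial list centers near 0.

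Over the 3 derived lines, 8 genes came closest to the median profile of the 10 enzymes among 11195 with at least 100 normalized counts. The likeness was the root mean square difference of the 3 log2 fold changes, and it was 0.03 for *Tprn*, 0.09 for *Crnde*, 0.09 for *Ankrd52*, 0.10 for *Mras*, 0.14 for *Dolpp1*, 0.14 for *Fam50a*, 0.15 for *Ngfrap1* and 0.16 for *Alg13*. *Tprn* had log2 fold changes of -1.13, -1.50 and -1.24 in rho0, PKO-1 and PKO-6. The profile has 3 values that share the TM6 libraries, so many genes can come near it, and none of the 8 is on a list used here.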

How the data were processed

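RNA-seq of 12 libraries, 3 for each of TM6, rho0, PKO-1 and PKO-6, was used. After ribosomal RNA depletion the authors prepared stranded libraries, each as a technical duplicate that was merged, and ran RSEM 1.2.25 on RefSeq transcripts of mm10 (GRCm38). Both Bowtie and Bowtie2 are named for building its reference. Per gene, the deposited values are expected counts without normalization, and these were rounded to whole numbers. The authors' per-transcript TPM was summed by gene for levels per length, their FPKM was the alternative, and the deposited percent of each gene's transcripts was used as given. RNA was isolated by either of 2 kits, and which library had which is not given in the sources used here.

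In R 4.3.3, edgeR 4.0.16 fitted the 4 lines together (filterByExpr with a minimum count of 10, TMM, quasi-likelihood test, Benjamini-Hochberg over 14026 genes), and a second fit pooled the PKO clones. The standard error is the log2 fold change divided by the square root of F. To normalize, a count was divided by its library's TMM-scaled total, itself relative to the mean over libraries. The study pooled the clones and used DESeq2 1.18.1, and here DESeq2 1.42.0 was an alternative. Libraries with the same replicate number were compared as described with the alternatives, and no pair of replicates agreed within sampling noise. The closest pair was rho0 replicates 2 and 3, with a chi-square per gene of 4.76. The rho0 replicate 1 lay at 89 from replicate 2 and 67.6 from replicate 3. Pairs within the other lines ran from 12.2 to 142. Coordinates are those of the files in GRCm38, whose transcript starts match the RefSeq promoters. The test was tried on simulated data.

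The enzymes, gene lists and tests were chosen with earlier results of these data known. Named genes are the 10 enzymes, *Srebf1*, *Srebf2*, *Insig1*, *Slc25a1*, *Me1*, *Pnpt1*, up to 3 genes per list and direction called alike in all derived lines with at least 100 normalized counts, and the 8 genes with the most similar profile. *Scap*, *Prkaa2*, *Elovl3*, *Fads3*, *Fads6*, *Scd3*, *Scd4*, *Fabp4* and *Pparg* were named outside this rule, after their values were seen.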

Additional observations from a re-analysis of the deposited data

Results flagged for a closer look

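The effect against TM6 differed between the PKO clones for 4 of the 10 enzymes, by the direct edgeR test of PKO-1 against PKO-6. In the same test 29.1% of all genes were called. The median absolute log2 fold change was 0.30 over the 10 enzymes and 0.34 over all tested genes. The count is therefore not read as a result about the enzymes as a list. The difference in log2 fold change was 0.87 for *Scd1*, 0.70 for *Scd2*, 0.56 for *Acly* and -0.64 for *Elovl5*. The libraries of the clones did not overlap for any of these genes, and likewise not for 66.5% of all tested genes. *Elovl5* lies on chromosome 9, whose tested genes had a median of -0.37 in the same comparison, and *Acly* on chromosome 11, with a median of 0.13. With the chromosome medians subtracted, the differences were -0.28 for *Elovl5* and 0.43 for *Acly*, neither of which passed the fold threshold. A test of the end gap relative to the range flagged none of the 6 PKO libraries for any of the 10 enzymes. It pooled both clones, which did not overlap for 8 enzymes, against 66.5% of all tested genes, so the clone difference sets much of the range. The test could therefore hardly flag an outlying culture within a clone, and nothing is concluded from it. Groups of 3 were not examined for outliers.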

How the results depend on the processing

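Alternatives tried were the size factors or the Wald test of DESeq2, no low-count filter, a replicate block, the compared lines alone, the clones pooled, no *Rn45s*, chromosome medians subtracted, other thresholds, FPKM and the omission of each library. Subtracted values were not tested anew: their calls use the shifted log2 fold change and the adjusted p of the unshifted test. Against TM6, the enzymes called stayed at 9 in rho0, 10 in PKO-6 and 10 in pooled PKO without any library, and at 8 to 10 in PKO-1. At a log2 threshold of 1 they were 6 in rho0, 7 in PKO-1, 8 in PKO-6 and 7 in pooled PKO. The PKO-1 median moved to -1.43 with chromosome medians subtracted. Without single libraries the medians ranged from -1.38 to -1.27 in PKO-6 and from -1.49 to -1.38 in pooled PKO. Between PKO-1 and PKO-6, 8 enzymes were called at an adjusted p below 0.05 with no fold threshold, 0 at a log2 threshold of 1, where *Scd1* is the nearest at 0.87, and 2 with chromosome medians subtracted, and the median was 0.24 with no filter, 0.27 with chromosome medians subtracted and 0.22 to 0.32 without single libraries. In that comparison *Fasn* ranged from -0.15 to 0.052 and *Fads1* from -0.057 to 0.022 without single libraries. Against rho0, 9 enzymes were called in each clone at an adjusted p below 0.05 with no fold threshold, and 1 in PKO-1 and 2 in PKO-6 at a log2 threshold of 1. For PKO-1 against rho0, 3 to 6 enzymes were called without single libraries, the median ranged from -0.50 to -0.46, and it was -0.48 with DESeq2's size factors. The counts that rest on thresholds move by their construction, and the cause of the other shifts was not tested. The share of all genes called at these other thresholds was not computed, so those counts are not read as results about the enzymes. Over the alternatives that keep the libraries and the thresholds, 418 of 430 log2 fold changes of single enzymes kept their direction and their side of the threshold, and over the omissions 704 of 720 did, with 12 exceptions of the first kind. These were *Acaca* in PKO-1 against TM6, called in 6, and, with chromosome medians subtracted, *Acly* and *Elovl5* between the clones, no longer called at 0.43 and -0.28, and 4 enzymes in PKO-1 against rho0, *Elovl5*, no longer called at -0.07, *Fasn* and *Acaca*, called at -0.51 and -0.50, and *Elovl6*, which turned to -0.12.

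With the replicate block, the enzymes called were 9 in rho0, 9 in PKO-1 and 10 in PKO-6 against TM6, and the median in rho0 was -1.12; it changed no call. Same-numbered libraries of different lines had correlations of their deviations from -0.385 to 0.25, with a median of 0.124 and 10 of 18 pairs over 0.1. Of the 12 libraries, 5 correlated best with their own number. With 3 replicates per line, these values cannot decide whether the replicate numbers pair the libraries.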
